A study of Mus musculus with 6 samples.

Results

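The p53 pathway besides p21 was followed in embryonic mouse hearts through 31 genes, namely Trp53, its main inhibitors and known transcriptional targets. They were taken by gene symbol, and a gene was read where the array annotation used here gave a probe set that symbol and no other. This held for 28 of the 31, read by 54 probe sets, among 18193 genes so named in the series. Trp53 itself, Bax and Fdxr had no probe set under their own symbol and were not analysed here. The other genes were each represented by their probe set with the highest mean over all arrays.

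p53 is a transcription factor that is kept scarce in unstressed cells by Mdm2, a ubiquitin ligase, with the help of its relative Mdm4. DNA damage or other stress frees p53 from them, and it then raises genes that halt the cell cycle, repair DNA, tune metabolism or start apoptosis. Mdm2 is itself a target, which closes a feedback loop. In heart muscle, loss of Mdm2 is known to release p53 and to be harmful.

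Hearts were taken whole from embryos at day 16.5, 3 wild-type (WT) and 3 FOG-2R3K5A (mutant) samples, each on 1 Affymetrix array. All embryos were siblings from crosses of double heterozygotes on a mixed C57/B6, 129 S6 background. FOG-2, encoded by Zfpm2, is a cofactor of GATA factors, and R3K5A alters the N-terminal motif through which it recruits NuRD, a chromatin remodeller with histone deacetylases. The labels state neither the zygosity nor whether a sample was 1 heart or several, so p-values measure the spread between these 6 samples. In a whole heart, fewer cells of a type and less RNA per cell cannot be told apart.

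Differences are mutant minus WT in log2 units of intensity, with the standard error (SE) of limma, and a gene is called when its Benjamini-Hochberg adjusted p over all 11113 tested genes is under 0.05. Genes were tested when their mean lay above 6.30 log2 units, the median of all probe sets. Of all tested genes 1.76% were called, 1.39% higher and 0.369% lower in mutants. WT replicate 1 stood apart from the other WT arrays: on the first principal component it lay at -1.08, between WT replicates 2 and 3 (-21.1 and -11.2) and the mutants (8.55 to 13.1). Its 18S rRNA control signal was 969 against 429 and 411 on the other WT arrays and 631 to 1051 in mutants. Cardiomyocyte markers were all tested, 8 of 8, and 0 were called. The summed intensity of 12 mesothelial and epicardial markers was 6887 to 7357 in WT and 8594 to 9232 in mutants. Of the 12, 7 were called higher: Krt8, Krt18, Krt19, Msln, Upk3b, Gpm6a and Muc16. The rest were not called, with Bnc1 at 0.36 and Aldh1a2, Tbx18, Tcf21 and Wt1 at -0.22, -0.11, -0.09 and -0.06 (mutant minus WT). Leukocyte markers summed to 1802 to 2303 in WT and 2388 to 2515 in mutants, with 0 of 8 called. Lung and airway markers summed to 704, 212 and 3485 in mutant replicates 1, 2 and 3 and to 211 to 324 in WT.

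Across the pathway no member passed the threshold. Of the 28 genes read, 23 were tested, and 0 were called higher or lower by limma, against 1.76% of all tested genes. At an unadjusted p under 0.05 there were 5 of the 23, all higher in mutants, or 21.7% against 14.7% of tested genes (8.4% higher and 6.33% lower). The genotypes did not overlap for 6 members (26.1%, against 21.2% of tested genes), 5 of them higher and 1 lower, where 11.5% and 9.76% of tested genes were so. The median difference of the tested members was 0.02, where that of all tested genes was -0.01, and 13 members (56.5%, against 47.2% of tested genes) were positive and 10 negative. Taken over all 28 genes read, the median was 0.05. Eda2r and Dram1 passed the filter only through their mutant arrays, their WT means of 6.27 and 6.16 lying under it, so counts over the tested members lean toward higher in mutants by construction. Without WT replicate 1, 1 member was called, Plk2. In that fit 451 of all 11113 tested genes were called, against 196 with all arrays.

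By comparison p21 (Cdkn1a), the cell cycle inhibitor that is the best known p53 target, rose on the same arrays. It read 8.09, 8.28 and 8.16 in WT replicates 1, 2 and 3 and 8.98, 9.01 and 8.76 in mutants, a difference of 0.74 (SE 0.10, 1.67-fold, adjusted p = 0.0120). That call ended when its probe sets were averaged (adjusted p = 0.0622) and without WT replicate 3 (0.0532), mutant replicate 1 (0.0940) or mutant replicate 2 (0.0591). For 21 of the 23 tested members the 95% interval of the difference ended below 0.74, the exceptions being Eda2r and Dram1. The interval of p21 itself ran from 0.50 to 0.97, and the intervals of 4 tested members (Plk2, Polk, Eda2r and Dram1) reached into it. For 18 of 23 the interval lay within 1.5-fold either way, and the other 5 were Plk2, Sesn1, Bbc3, Eda2r and Dram1. These intervals are per gene and not adjusted for the number of genes.

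**Figure D1:**
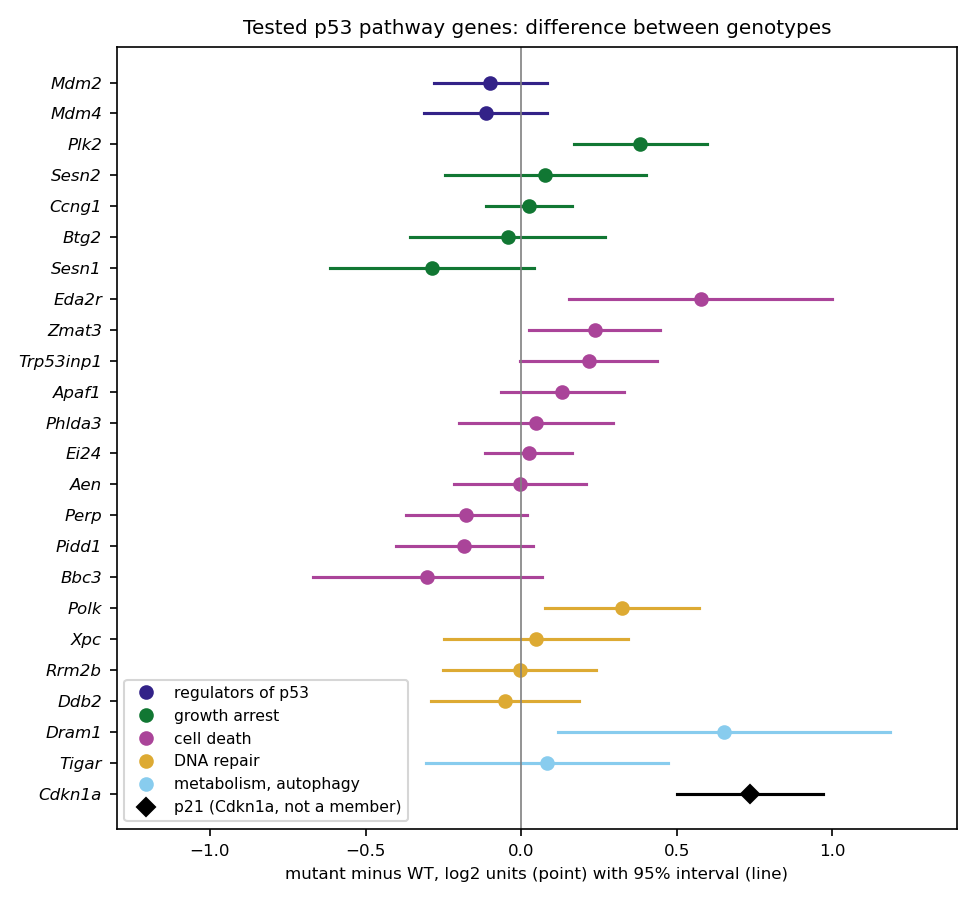
Mutant minus WT difference of the 23 tested members in log2 units (x axis), grouped by role and coloured by group, with p21 as a black diamond; lines are limma's 95% intervals, n = 3 arrays per genotype. Most members lie near 0, and p21 at 0.74 lies above the interval of 21 of the 23 members.

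The promoter windows of the members are shown because p53 acts through a short DNA element near its targets, so that the genes differ in what regulatory sequence lies at their start. The windows run from 250 bases before to 50 bases after the transcript start, as given by RefSeq for build GRCm38.p6, and 23 of the 31 members had at least 1. They were searched for the consensus p53 half-site, which reads the same on both strands: 3 purines, C, 2 bases that are A or T, G and 3 pyrimidines. A full site was 2 half-sites with 0 to 13 bases between them. A half-site stood in the windows of 9 of the 23 members, or in 34.5% of their 29 windows against 8.36% of all 32851 windows. The members were listed as known p53 targets and regulators, so these shares describe the list and are not a test. The 2 windows of Aen overlap and share their half-site. Polk and Sesn1 have 2 windows each, with the half-site in 1 of them. A full site stood in 0 of the members' windows and in 24 of all windows (0.0731%), and a window of Cdkn1a was among those 24. Several p53 elements are known to lie in introns or farther upstream, so no match says only that the letters are not in these windows. Whole windows follow for Cdkn1a, a target called outside the members, for Mdm2, the feedback gene, and for Polk and Plk2. Cdkn1a has another window, farther downstream at chr17:29093519-29093818, without a half-site, that is not shown. The window of Epha2, a further target called outside the members, held no half-site and is not shown. Polk has a half-site in 1 of its 2 windows, the window shown. On the - strand this window lies downstream of the other, at chr13:96542530-96542829, which has no half-site. The genotypes did not overlap for Polk. Plk2, the member with the smallest p, has no half-site in its window. The sequences run 5′ to 3′ on the gene's strand with half-sites in capitals.
Cdkn1a, chr17:29090729-29091028, + strand: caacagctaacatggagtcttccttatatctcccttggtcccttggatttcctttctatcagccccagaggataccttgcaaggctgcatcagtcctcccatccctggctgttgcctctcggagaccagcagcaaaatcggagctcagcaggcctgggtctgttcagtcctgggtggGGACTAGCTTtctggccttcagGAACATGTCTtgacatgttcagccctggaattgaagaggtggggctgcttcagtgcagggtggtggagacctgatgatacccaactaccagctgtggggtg
Mdm2, chr10:117710709-117711008, - strand: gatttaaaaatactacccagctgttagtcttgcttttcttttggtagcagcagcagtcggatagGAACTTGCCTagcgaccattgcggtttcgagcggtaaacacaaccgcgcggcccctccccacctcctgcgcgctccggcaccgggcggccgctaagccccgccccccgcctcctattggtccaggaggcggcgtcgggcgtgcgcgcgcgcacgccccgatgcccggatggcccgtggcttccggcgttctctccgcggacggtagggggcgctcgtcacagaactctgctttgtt
Polk, chr13:96519138-96519437, - strand: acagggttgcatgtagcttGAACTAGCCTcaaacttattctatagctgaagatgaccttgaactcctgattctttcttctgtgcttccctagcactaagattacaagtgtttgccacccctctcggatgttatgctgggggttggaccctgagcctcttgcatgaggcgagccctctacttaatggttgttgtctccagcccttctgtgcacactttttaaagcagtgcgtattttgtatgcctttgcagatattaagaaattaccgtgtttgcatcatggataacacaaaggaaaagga
Plk2, chr13:110394794-110395093, + strand: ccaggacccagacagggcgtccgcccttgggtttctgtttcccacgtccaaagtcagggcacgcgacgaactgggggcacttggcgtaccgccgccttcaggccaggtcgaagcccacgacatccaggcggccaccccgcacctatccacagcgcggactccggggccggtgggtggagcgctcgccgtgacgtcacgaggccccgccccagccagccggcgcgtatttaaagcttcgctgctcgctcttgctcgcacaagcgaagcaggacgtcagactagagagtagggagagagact

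The other half-sites are shown with 10 bases on either side, to let their sequence be compared. In these arrays none of the members that were tested was called.
Aen: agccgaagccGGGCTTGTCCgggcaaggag
Bax: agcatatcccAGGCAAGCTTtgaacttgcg
Ccng1: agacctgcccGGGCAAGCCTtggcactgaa
Ei24: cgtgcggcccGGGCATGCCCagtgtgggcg
Gadd45a: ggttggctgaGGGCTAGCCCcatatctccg
Sesn1: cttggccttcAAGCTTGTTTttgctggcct
Trp53: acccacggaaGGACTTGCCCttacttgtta
The half-site of Ei24 begins at -10 and that of Gadd45a at -40 relative to the start, while those of Mdm2, Ccng1 and Bax begin at -186, -185 and -201. In the Cdkn1a window shown, the half-sites begin at -73 and -51 relative to that window's own start. This start lies upstream of the one in the other Cdkn1a window, which has no half-site.

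Among the regulators, both inhibitors of p53 had small negative differences and neither passed. Mdm2, the ligase that marks p53 for degradation, read 9.92, 10.07 and 9.92 in WT replicates 1, 2 and 3 and 9.85, 9.96 and 9.80 in mutants. The groups overlapped, through mutant replicate 2, and the difference was -0.10 (SE 0.08, adjusted p = 0.595, 95% interval -0.28 to 0.08). A second Mdm2 probe set above the filter gave -0.10. With the mean over all 3 Mdm2 probe sets the difference was 0.01, a value that includes a probe set under the filter at 0.24.

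Mdm4, which blocks the activation domain of p53, gave values that depended on the probe set. The main one read 9.15, 9.13 and 9.21 in WT and 9.13, 9.09 and 8.92 in mutants, with overlap and a difference of -0.11 (SE 0.09, adjusted p = 0.577). Another, 1419558_at, read 7.00, 8.25 and 7.99 in WT and 6.88, 6.89 and 7.01 in mutants, a difference of -0.82 (SE 0.27, adjusted p = 0.228 in the fit over all probe sets). WT replicate 1 sat with the mutants on that probe set, and without it the difference was -1.19 (adjusted p = 0.00758). Whether what sets WT replicate 1 apart bears on this value was not tested.

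Of the 7 genes of growth arrest and stress restraint, 5 were tested and 0 were called, 3 positive and 2 negative. Plk2, a polo-like kinase induced by p53 after damage, came nearest to the threshold of all members. It read 10.35, 10.07 and 10.12 in WT and 10.46, 10.68 and 10.55 in mutants. Every mutant array lay above every WT array, and WT replicate 1 was the WT array closest to the mutants. The difference was 0.38 (SE 0.09, 1.30-fold, adjusted p = 0.0909). Without WT replicate 1 it was 0.47 (adjusted p = 0.0282), the only alternative of 16 in which it was called. That fit called 451 genes in all, as given above. Its other probe set, under the filter, had 0.45.

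Ccng1, which encodes cyclin G1 and is among the most regular targets of p53, had a difference close to 0. It read 11.81, 11.89 and 11.97 in WT and 11.84, 11.91 and 12.00 in mutants, a difference of 0.02 (SE 0.06), with a 95% interval of -0.11 to 0.16. Its other probe sets gave 0.02 and -0.04. Btg2, an antiproliferative factor, had -0.04 (SE 0.14) with WT arrays between 8.76 and 9.24, and its second probe set had 0.19 with genotypes that did not overlap (adjusted p = 0.416).

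The sestrins, which restrain the growth kinase mTORC1 under stress, did not pass. Sesn1 read 10.28, 10.62 and 10.48 in WT and 10.03, 9.97 and 10.52 in mutants. Mutant replicate 3 lay within the WT range while mutant replicates 1 and 2 lay below it, and the difference was -0.29 (SE 0.15, adjusted p = 0.392). All 4 Sesn1 probe sets were negative, from -0.31 to -0.04. Sesn2 had 0.08 (SE 0.14). Gadd45a, a growth arrest and repair factor, and Plk3, a relative of Plk2, lay under the filter, at 6.05 ± 0.08 (SD, n = 3) and 5.35 ± 0.31 in WT and 6.16 ± 0.06 and 5.56 ± 0.19 in mutants.

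**Figure D2:**
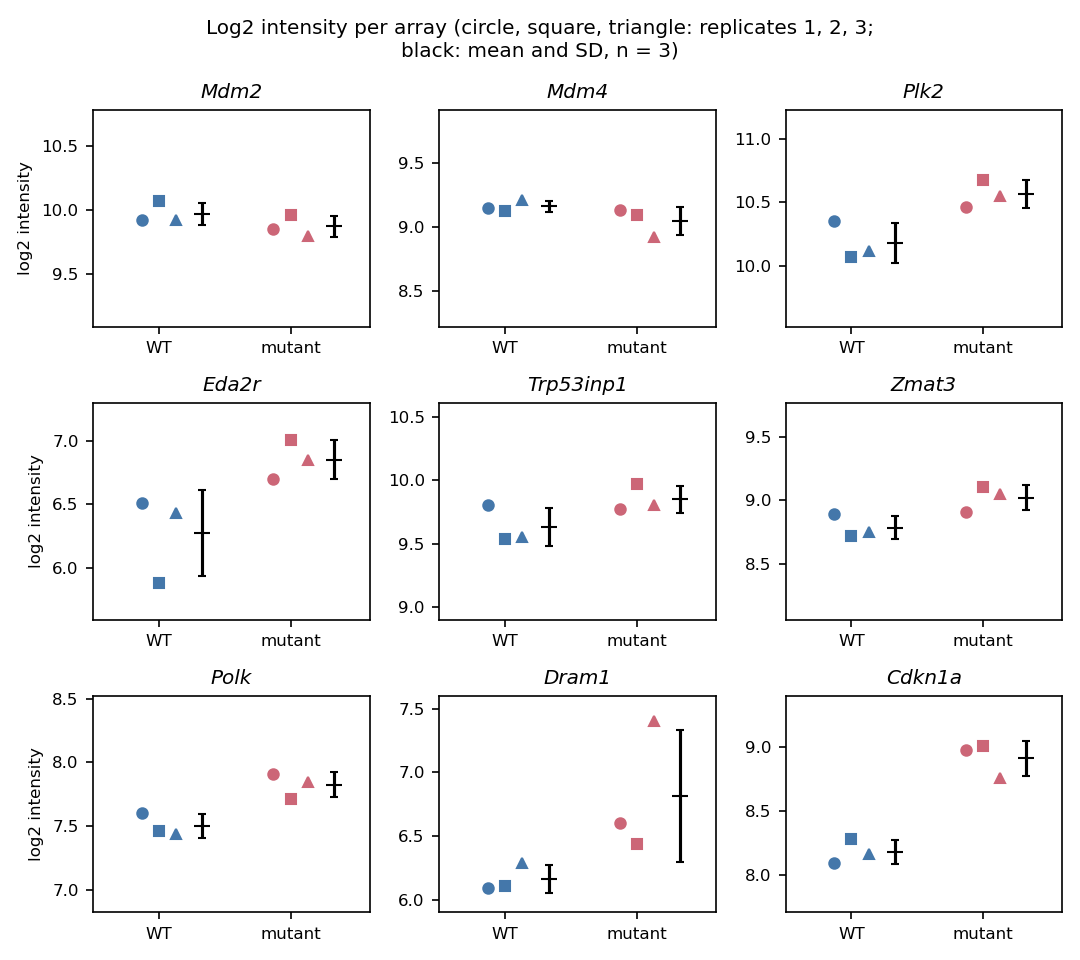
Log2 intensity on each array (y axis, a span of 1.7 log2 units in every panel) of the members described with all their values and of Cdkn1a. Blue marks are WT and red marks mutant arrays, with circle, square and triangle for replicates 1, 2 and 3, and black bars give mean and SD (n = 3). The WT circle lies nearest the mutants for Plk2, Eda2r, Trp53inp1, Zmat3 and Polk, and mutant replicate 3 stands above the rest for Dram1.

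Genes of cell death were read for 13 of the 14 in the list, 10 were tested and 0 called, with 6 positive and 4 negative differences. Their median was 0.04. Neither the effectors of the mitochondrial route nor the death receptors among them held a called gene. Several could not be called: Bax was not read, and Pmaip1, Fas and Tnfrsf10b lay under the filter and were not tested. Bbc3, which encodes the BH3-only protein PUMA, read 6.85, 7.46 and 7.22 in WT and 6.96, 6.84 and 6.83 in mutants. WT replicate 1 lay within the mutant range, and the difference was -0.30 (SE 0.16, adjusted p = 0.430). Pmaip1, encoding the BH3-only protein NOXA, lay under the filter at 5.82 ± 0.27 in WT and 5.88 ± 0.15 in mutants. Apaf1, the core of the apoptosome, had 0.13 (SE 0.09) and 0.15 on its second probe set.

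The receptor Eda2r, a member of the tumour necrosis factor receptor family that binds an ectodysplasin isoform, read 6.51, 5.88 and 6.43 in WT and 6.70, 7.01 and 6.84 in mutants. All mutant arrays lay above all WT arrays, with WT replicate 2 the lowest. The difference was 0.58 (SE 0.19, 1.49-fold, adjusted p = 0.191), and over 15 alternatives it ran from 0.38 to 0.69 and was called in 0. Fas, another death receptor, lay under the filter and showed the same order. It read 5.56, 4.96 and 4.96 in WT and 5.71, 5.95 and 5.56 in mutants. WT replicate 1 and mutant replicate 3 nearly met, and every mutant array was still the higher. The difference was 0.59 (SE 0.22), and with all genes tested regardless of level it did not pass (adjusted p = 0.371). Tnfrsf10b, the mouse TRAIL receptor, was also under the filter at 4.74 ± 0.44 in WT and 4.65 ± 0.18 in mutants. Eda2r and Fas were higher in mutants, as were the mesothelial and leukocyte marker sums given above. Among mutants both genes were highest on replicate 2, where these sums were lowest, at 8594 and 2388. Among WT arrays Eda2r was lowest on replicate 2, where the leukocyte sum was lowest, at 1802, but the mesothelial sum was not. Fas was level on WT replicates 2 and 3, at 4.96 on each. The part of these cells in either value was not tested.

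Pidd1, a death-domain protein that activates caspase 2, was the one member lower in mutants without overlap. It read 7.87, 7.83 and 7.84 in WT and 7.61, 7.73 and 7.65 in mutants, a difference of -0.18 (SE 0.10, adjusted p = 0.421). Perp, a membrane protein of desmosomes and a p53 target in apoptosis, had -0.18 (SE 0.09, adjusted p = 0.381), with mutants from 11.04 to 11.20 and WT from 11.13 to 11.42, which overlap. Aen, an apoptosis-enhancing nuclease, had 0.00 (95% interval -0.21 to 0.21). Ei24, an endoplasmic reticulum protein of autophagy, had 0.02 (-0.12 to 0.16). Phlda3, an inhibitor of Akt, had 0.05 (-0.20 to 0.29).

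Trp53inp1 and Zmat3 were the other two positive genes of this group among the 6 members with the smallest p. Trp53inp1, a nuclear cofactor of p53 that also works in autophagy, read 9.81, 9.54 and 9.56 in WT and 9.78, 9.97 and 9.80 in mutants. WT replicate 1 lay among the mutants, and the difference was 0.22 (SE 0.10, adjusted p = 0.348), with 0.16 on its second probe set. Zmat3, an RNA-binding zinc finger protein, read 8.89, 8.72 and 8.75 in WT and 8.91, 9.11 and 9.05 in mutants. The groups did not overlap, though WT replicate 1 and mutant replicate 1 nearly met, and the difference was 0.24 (SE 0.09, adjusted p = 0.283).

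All 4 DNA repair genes were tested and 0 were called. Polk, a polymerase that copies past damaged bases, read 7.61, 7.46 and 7.43 in WT and 7.91, 7.71 and 7.85 in mutants, without overlap. The difference was 0.32 (SE 0.11, 1.25-fold, adjusted p = 0.206), and its second probe set gave 0.13 (SE 0.13). Xpc and Ddb2, which find bulky lesions for nucleotide excision repair, had 0.05 (SE 0.13) and -0.05 (SE 0.10), each with overlapping genotypes.

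Rrm2b, the p53-inducible subunit of ribonucleotide reductase that supplies nucleotides for repair, gave the sharpest split between probe sets. The main probe set read 9.12, 8.96 and 9.21 in WT and 9.05, 8.96 and 9.27 in mutants, a difference of -0.01 (SE 0.11), and a second one had 0.03 (SE 0.10). Probe set 1437222_x_at read 7.64, 7.59 and 7.46 in WT and 6.77, 6.95 and 6.84 in mutants, and 1437221_at read 7.79, 7.60 and 7.47 against 6.78, 7.04 and 6.97. On both, every mutant array lay below every WT array by a wide margin. Their differences were -0.71 (SE 0.11, adjusted p = 0.0263) and -0.69 (SE 0.13, adjusted p = 0.0449) in the limma fit over probe sets. That fit held the 19762 probe sets with 1 symbol above the filter, where 1.1% were called and 0.218% were called lower. This pair were the only 2 called of the members' probe sets above the filter, and those under it were not tested. The direction held in all 14 alternatives of each, but the calls were kept in 7 and 2 of them. With WT replicate 2, WT replicate 3 or any single mutant array left out, neither passed (adjusted p = 0.0566 to 0.187 and 0.0798 to 0.245).

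The suffix x marks probe sets whose probes can also match other transcripts, and where the probes of these sets lie in the Rrm2b transcript was not examined. Rrm2b is also the only member on the chromosome of Zfpm2, with 15 protein-coding genes between the pair in the gene order of GRCm38.p6. DNA that lies close to the altered gene can differ by strain between mutants and WT siblings in a cross of mixed background, and its part in the split between the Rrm2b probe sets was not tested.

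**Figure D3:**
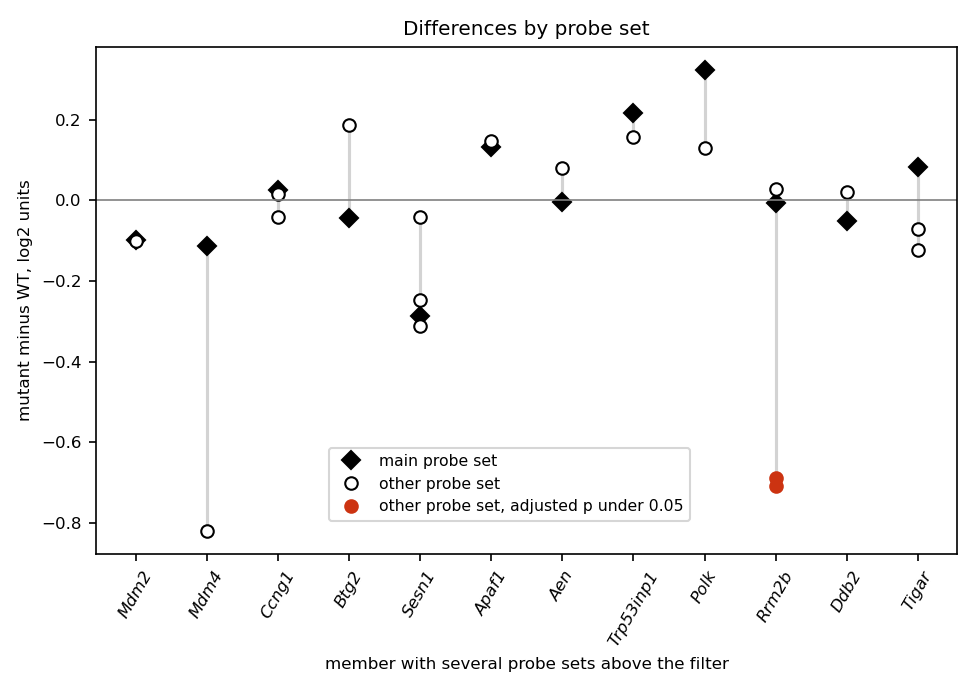
Mutant minus WT difference in log2 units (y axis) of every probe set above the filter for the 12 members with more than 1 such probe set; diamonds are the probe sets that represent the gene, circles the others, and red circles those called in the fit over all probe sets. The red pair of Rrm2b lies at -0.69 and -0.71 below its other probe sets near 0, and a Mdm4 probe set lies at -0.82.

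Where a member had another probe set above the filter, its sign matched that of the main one for 11 of 18 such probe sets and was opposite for 7. The opposite signs belonged to Ccng1, Btg2, Aen, Rrm2b, Ddb2 and Tigar, genes whose main difference ran from -0.05 to 0.08. With a main difference that near 0 the sign says little. For Rrm2b, at -0.01, the pair at -0.71 and -0.69 counts as matching and the probe set at 0.03 as opposite.

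In metabolism and autophagy, 2 of the 3 genes were read and both were tested. Dram1, a lysosomal membrane protein that links p53 to autophagy, had the largest difference of all tested members. It read 6.09, 6.11 and 6.29 in WT and 6.60, 6.44 and 7.40 in mutants, without overlap. Mutant replicate 3 stood well above the other mutants, and the difference was 0.65 (SE 0.24, adjusted p = 0.243). Without mutant replicate 3 it was 0.36. That array also had the lung marker sum of 3485, against 704 and 212 on mutant replicates 1 and 2, from 7 markers read of 8. Sftpc, the surfactant protein of alveolar cells, read 9.43 there and 5.80 to 6.53 on the other 5 arrays. Scgb3a2, a secretoglobin of airway cells, read 11.36 there, 9.03 and 4.87 on mutant replicates 1 and 2, and 4.83, 4.81 and 5.40 in WT. The surfactant proteins Sftpb and Sftpd read 6.88 and 4.82 on mutant replicate 3, under their highest WT values of 7.03 and 5.37, and the lung regulator Nkx2-1 read 2.07, far under the filter. The part of lung tissue in the Dram1 value was not tested. Tigar, a phosphatase that lowers glycolytic flux, had 0.08 (SE 0.17) and negative values on its other probe sets, -0.12 and -0.07.

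**Figure D4:**
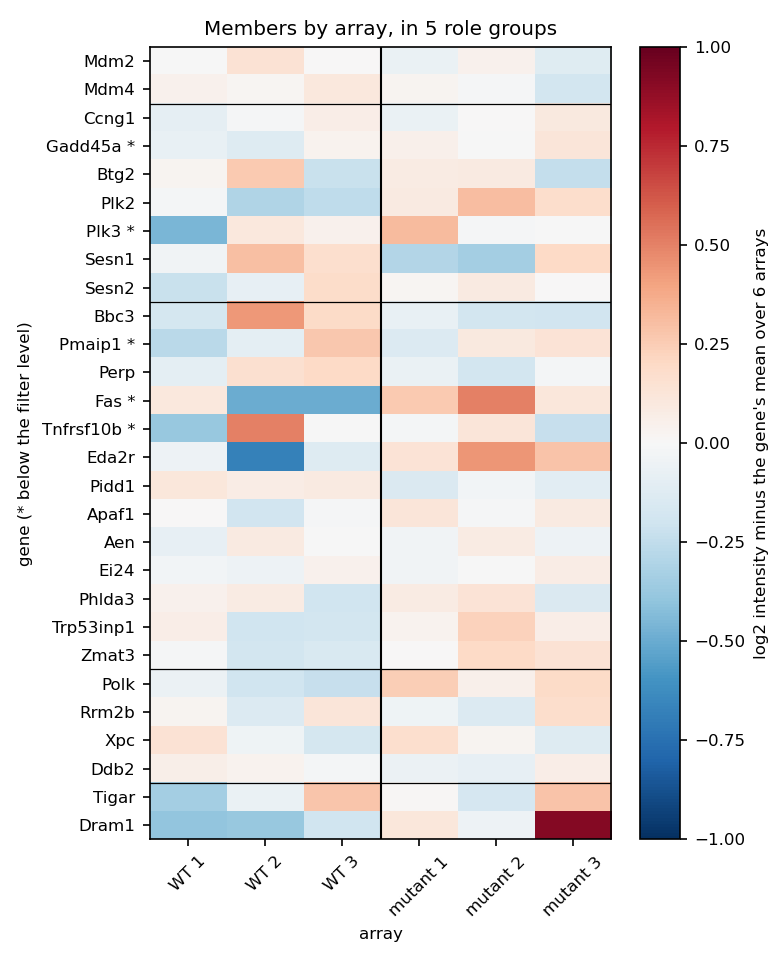
Deviation of each of the 28 members read (rows, in their 5 role groups; an asterisk marks the 5 under the filter) from its own mean over the 6 arrays, in log2 units (colour, from -1 to 1), by array (columns, WT left of the line and mutant right of it). Plk2, Eda2r, Zmat3 and Polk lie below their mean on every WT array and above it on every mutant array, Zmat3 only narrowly on replicate 1 of each genotype. The darkest cell is Dram1 on mutant replicate 3.

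By array, the tested members' median deviation from each gene's own mean ran from -0.04 to 0.00 on WT arrays and from 0.01 to 0.06 on mutant arrays, against -0.02 to 0.02 for all tested genes over the 6 arrays. WT replicate 1 was the WT array closest to the mutant mean for 4 of the 6 members without overlap (66.7%), and for 51.2% of the 2360 tested genes without overlap.

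Other genes of the pathway came from a list of 59, of which 53 were read and 48 tested. Among them 2 were called higher and 0 lower, where 1.39% and 0.369% of all tested genes were so. Both came from the 36 further targets: Cdkn1a, given above, and Epha2, an ephrin receptor. Epha2 read 8.15, 8.12 and 8.03 in WT and 8.55, 8.49 and 8.57 in mutants, without overlap, a difference of 0.44 (SE 0.09, 1.35-fold, adjusted p = 0.0498). Its call ended in 9 of 16 alternatives, with adjusted p from 0.0220 to 0.276 over the 16. Among the 9 were the fits without WT replicate 2 (0.0811), WT replicate 3 (0.149), mutant replicate 1 (0.276), mutant replicate 2 (0.174) and mutant replicate 3 (0.157). Of these 48 genes the number called fell to 0 without WT replicate 3, mutant replicate 1 or mutant replicate 2. Of the 23 upstream kinases, cofactors and relatives of p53, 19 were tested and 0 called. At an unadjusted p under 0.05 in limma there were 2 of the 19 (10.5%, against 14.7% of all tested genes). Of the 29 further targets tested there were 4 (13.8%), 2 higher and 2 lower in mutants. Among the lower ones was Cyfip2, with the largest negative difference of the 48 genes. It had -0.55 (adjusted p = 0.0583 in limma), without overlap, and was not called. The median difference of the 48 genes was -0.02.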

How the data were processed

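Total RNA of whole hearts was labelled with biotin and hybridised to 1-colour Affymetrix arrays, per the labels' protocols. The authors deposited linear probe set intensity values that were already scaled between arrays, as their medians show (77.4 to 84.1, a gap of 0.12 log2 units). The software behind them is not given in the sources used here. Of 45101 probe sets 64 were controls, and the platform annotation gave 34945 of the others 1 symbol, 932 several and 9160 none. No symbol needed updating through the GRCm38.p6 gene table.

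Intensities were floored at 1 and log2-transformed. Of 18193 genes, each read by its brightest probe set, 7080 with a mean at or below 6.30 (an intensity of 78.9) were left out. limma 3.58.1 in R 4.3.3 (lmFit, eBayes with an intensity trend, two-sided, Benjamini-Hochberg adjustment over 11113 genes) compared 3 mutant with 3 WT arrays. All probe sets with 1 symbol and a mean above the same level were tested the same way in a second fit. The number of arrays limits the precision. Figures were drawn with matplotlib 3.10.9.

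The members, gene lists and tests were chosen with earlier results of these data known. Members with all values given were Mdm2, Mdm4, the 6 with the smallest p, any called, and any without overlap and at least 0.3 apart; others shown in full were chosen after their values were seen. Related genes were named when called, and Cyfip2 was named after its values were seen. No pair of arrays shared more than 46 identical values above the floor.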

Additional observations from a re-analysis of the deposited data

How the results depend on the processing

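The count of called members, 0, was the same under quantile normalization, median centring, an offset of 16, no filter, a filter 1 log2 unit higher, the mean over probe sets, no intensity trend, array quality weights and the Xist level as a covariate. It was 1 with an adjusted p under 0.1 (Plk2), 1 with every probe set tested by itself (Rrm2b, lower), and 0 to 1 with an array left out. The median difference of the members ran from -0.01 to 0.05 with an array left out. Under median centring it was 0.07, where that of all tested genes was 0.03, and under quantile normalization 0.03 against 0.005. In both of these 15 of the 23 tested members were positive, against 13 in the main fit. With an array left out 11 to 15 were positive. Mdm2 turned to 0.013 with the mean over probe sets. In all, 196 genes were called, 81 without a filter, 125 with the mean over probe sets, 119 without the trend, 429 with array weights, 43 with the Xist covariate, 369 with an adjusted p under 0.1, and 37 to 451 with an array left out. Of related genes 2 were called, 1 each under median centring, no filter, the mean over probe sets and the Xist covariate, and 0 to 3 with an array left out. It was 3, 1 of them lower in mutants, with array quality weights, with an adjusted p under 0.1 and without WT replicate 1. Called probe sets of members, 2 in all, were 1 under quantile normalization, median centring or no trend, 0 without a filter, with the higher filter or with the Xist covariate, and 0 to 3 with an array left out (alternatives chosen after seeing the data). With the higher filter the Rrm2b pair was left out and not tested, its means of 7.27 and 7.21 lying under that level. A full p53 site stood in 0 of the members' promoters, where 9 had a half-site. The cause of these changes was not tested. Replicate numbers shared by WT and mutants gave correlations of -0.06, 0.13 and 0.41 between same-numbered arrays, and WT replicate 1 correlated best with mutant replicate 2, so the numbers are not taken to pair the samples. With the replicate number as a block 234 genes, 0 members, 1 related gene and 1 probe set of members were called. Genes near the filter level have little signal over background, which limits Eda2r, Dram1 and the 5 members not tested.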
